A study of Mus musculus with 5 samples.

Results

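Zhx2 and a set of genes linked to it in fetal liver, Afp, H19, Gpc3, Lpl, Igf2 and Zfhx3, were followed across the livers of 5 inbred mouse strains. They were found as every probe set whose platform annotation gives one of these 7 symbols, also where the signal was at background. This gave 6 of the 18194 genes with a probe set of their own and 17 of the 45101 probe sets on the array: 1 for Zhx2, 5 for Afp, 2 for Lpl, 1 for Gpc3, 2 for Igf2 and 6 for Zfhx3. H19 had no probe set of its own, since the probe set that lists it, 1448194_a_at, also lists the microRNA gene Mir675. The strains were BALB/CByJ, C57BL/6J, RIIIS/J, FVB/NJ and NZW/LacJ, and all mice were males aged 10 weeks and without treatment. RNA of 3 mice was pooled for each strain and hybridised to 1 Affymetrix array, so the spread between animals of a strain was not measured and no test was possible. The study used these livers to follow up an expression locus by comparing strains.

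Zhx2 encodes a nuclear protein with zinc fingers and homeoboxes that helps to silence fetal liver genes after birth. Afp, the alpha-fetoprotein gene, makes the main plasma protein of the fetus and is shut down in the adult hepatocyte, while its relative Alb stays on. H19, an imprinted non-coding RNA, and Gpc3, a cell surface heparan sulphate proteoglycan, are silenced over the same period, and Lpl, the lipoprotein lipase that hydrolyses circulating triglyceride, is low in adult hepatocytes. Igf2 is a fetal growth factor gene, imprinted together with its neighbour H19. Zfhx3, also called Atbf1, encodes a large zinc finger and homeodomain protein that can repress Afp. A Zhx2 allele with low expression and persistent Afp was described in BALB/cJ mice. That substrain is related to, but is not, the one labelled here, and the alleles these mice carried were not tested.

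Values are intensities from the authors' GCRMA processing, on a linear scale. A signal was taken as detected above 8.48, the 95th percentile of 84 probe sets for odorant, pheromone and taste receptors, which stand for background in liver. Lower signals were raised to this floor before a ratio was taken, so a ratio against them is a lower bound. A strain was called higher or lower for a gene, or apart, when no other strain came within 2-fold of it on that side. Among the member probe sets, 11 were above the floor on at least 1 array and 6 on none. These 11 belonged to 4 genes, Zhx2, Afp, Lpl and Zfhx3. Hepatocyte markers were close on the 5 arrays in summed intensity, from 222451 in FVB/NJ to 250970 in RIIIS/J. A count of 0 of 6 apart was near the background, since 12.0% of all detected genes were apart in at least 1 strain. FVB/NJ was the array that stood apart, with all 4 measured B cell markers called higher there, as were 5.81% of all detected genes. The 4 B cell markers summed to 16898 in FVB/NJ against 94.2 to 226 in the other strains.

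**Figure D1:**
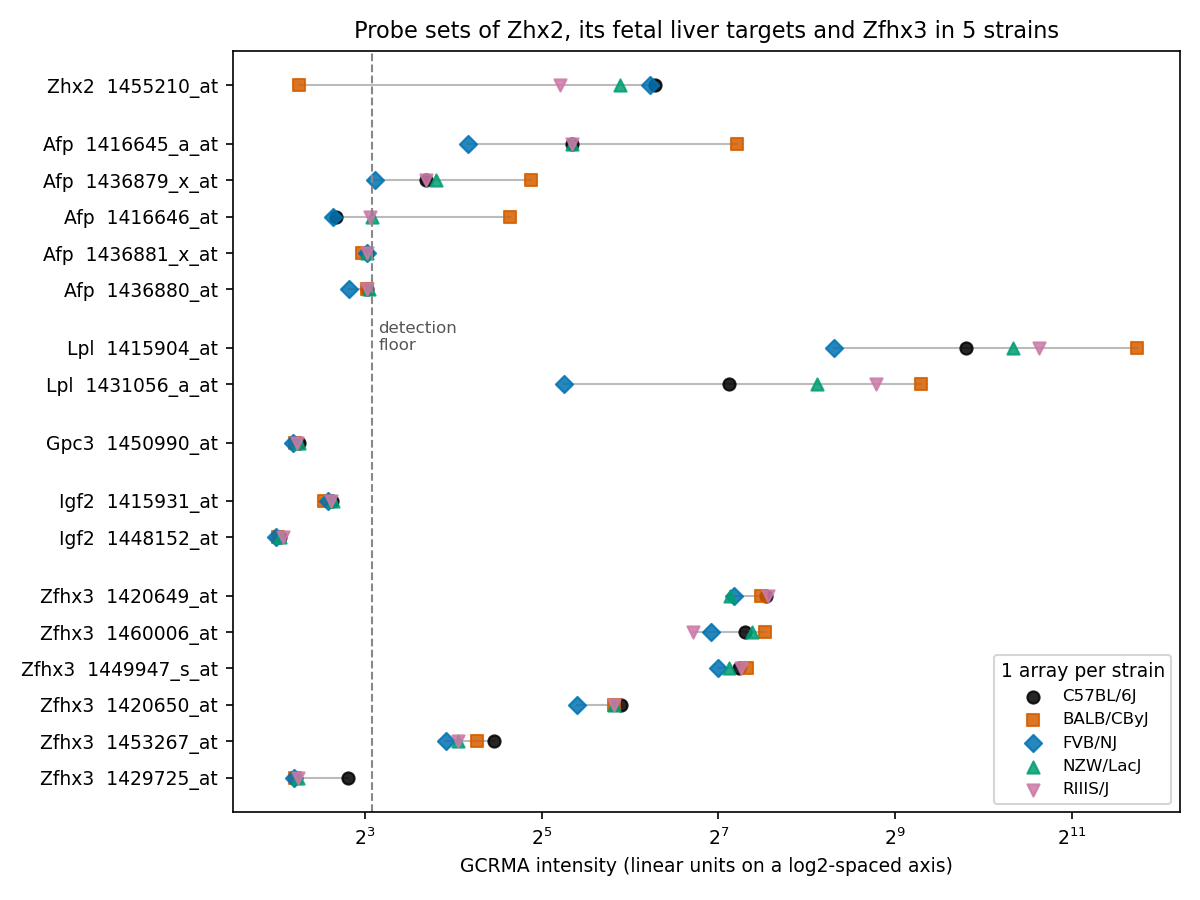
Intensity of the 17 probe sets of Zhx2, Afp, Lpl, Gpc3, Igf2 and Zfhx3, with 1 point for each strain on a log2-spaced axis and a grey line from the lowest to the highest strain. The dashed line is the detection floor at 8.48. Zhx2 is below it in BALB/CByJ alone, the BALB/CByJ point is the highest for 3 Afp probe sets and for both Lpl probe sets, and the Gpc3 and Igf2 points lie below the floor in every strain.

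Zhx2 was detected in 4 strains and not in BALB/CByJ. Its probe set read 77.7 in C57BL/6J, 74.7 in FVB/NJ, 59.4 in NZW/LacJ, 36.9 in RIIIS/J and 4.78 in BALB/CByJ. C57BL/6J and FVB/NJ were 1.04-fold apart, RIIIS/J was the lowest of the strains with a signal, and BALB/CByJ was under the floor. Zhx2 was therefore at least 4.35-fold lower in BALB/CByJ than in RIIIS/J and at least 9.16-fold lower than in C57BL/6J. The median over the other 4 strains was 66.6. Of 11872 genes detected on at least 1 array, 52 (0.438%) were called lower in BALB/CByJ, and the Zhx2 gap ranked 14 among them. The bound rests on the floor: with the floor set at the 99th percentile instead, an intensity of 27.95, the gap to RIIIS/J shrank to 1.32-fold and was no longer called. With a single Zhx2 probe set on the array, no second one could be set beside this value.

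The genes next to Zhx2 were read for comparison. Of the 3 measured genes on either side of Zhx2 in the RefSeq gene order, 4 were detected and 0 were apart in any strain. That count is near the background, since 12.0% of all detected genes were apart in at least 1 strain. Derl1, the nearest on one side and a gene of the endoplasmic reticulum degradation machinery, read 1089.4 in BALB/CByJ against 876 to 1324 elsewhere. Sntb1, a syntrophin gene, read 1309.8 against 761 to 1099, and Tbc1d31 read 75.9 against 45.1 to 62.5. Slc22a22 and Has2, on the other side, were under the floor on every array.

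Afp was highest in BALB/CByJ and lowest in FVB/NJ. The most intense probe set, 1416645_a_at, read 149 in BALB/CByJ against 17.9 in FVB/NJ, and gave exactly the same value, 40.6, in C57BL/6J, NZW/LacJ and RIIIS/J. Such ties were common, with 29.1% of all probe sets sharing a value between at least 2 arrays. BALB/CByJ was 3.67-fold above the next strains and FVB/NJ 2.27-fold below them, so that Afp was called apart in both. Genes called higher in BALB/CByJ numbered 95 (0.800%), and the Afp gap ranked 23 among them. Genes called lower in FVB/NJ numbered 64 (0.539%), where Afp ranked 41.

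The other Afp probe sets gave the BALB/CByJ difference in 2 of 4 cases. Probe set 1436879_x_at read 29.5 in BALB/CByJ, 13.9 in NZW/LacJ, 12.9 in C57BL/6J and RIIIS/J, and 8.67 in FVB/NJ. It was 2.12-fold above the next strain in BALB/CByJ and 1.49-fold below the next in FVB/NJ, which was not called. Probe set 1416646_at was above the floor in BALB/CByJ alone, at 24.9 against 6.25 to 8.43, at least 2.94-fold higher. The remaining probe sets, 1436880_at (7.04 to 8.27) and 1436881_x_at (7.83 to 8.16), were under the floor in every strain and showed no order. The higher Afp in BALB/CByJ was thus seen with both probe sets above the floor in every strain, 1416645_a_at and 1436879_x_at. Probe set 1416646_at counts as giving a signal only through BALB/CByJ, so it adds no separate support. The lower Afp in FVB/NJ was seen with 1 probe set, 1416645_a_at, at the 2-fold level.

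The bases upstream of Afp are shown because Afp is the one member with both a change between strains and an entry in the RefSeq promoter table, and those upstream of Gpc3 because it is a target that stayed silent. Promoters were listed for 4 of the 7 members, Afp, Gpc3, Igf2 and Zfhx3. Each is the 250 bases before the start annotated by RefSeq in build GRCm38.p6, read 5′ to 3′ on the strand of the gene, at chr5:90490464-90490713 (plus strand) for Afp and chrX:52613975-52614224 (minus strand) for Gpc3. Capitals mark GTTAAT and GTTAAC, the forms of the half-site of the hepatocyte factor HNF1, and TATAAA, the TATA box, each searched on both strands and with no overlap between them.
Afp: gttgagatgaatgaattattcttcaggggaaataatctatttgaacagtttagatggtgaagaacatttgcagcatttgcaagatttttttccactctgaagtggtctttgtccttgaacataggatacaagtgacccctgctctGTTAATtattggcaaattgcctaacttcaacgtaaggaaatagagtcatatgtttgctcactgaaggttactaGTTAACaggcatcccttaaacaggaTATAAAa
Gpc3: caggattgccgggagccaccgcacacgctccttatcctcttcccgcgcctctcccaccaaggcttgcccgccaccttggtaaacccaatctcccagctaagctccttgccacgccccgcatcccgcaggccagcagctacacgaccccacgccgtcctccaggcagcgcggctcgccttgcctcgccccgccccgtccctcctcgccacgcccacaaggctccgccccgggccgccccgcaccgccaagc
The Afp sequence held each of the 3 motifs once. GTTAAT occurred in 6.43% of the 32851 listed promoters over the same length, GTTAAC in 2.56%, both together in 0.240% and TATAAA in 12.4%. The Gpc3 sequence held none of them, and neither did the 4 Igf2 promoters or that of Zfhx3. Afp was poor in G and C, at 36.0% with 1 CpG, and Gpc3 was rich in them, at 71.6% with 25 CpG, around a median over all listed promoters of 52.4% and 6 CpG. These are the reference bases of C57BL/6J and describe letters only. No sequence of the other strains was used.

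Afp lies in the albumin gene cluster, and its neighbours were read beside it. Of 6 measured neighbours, 5 were detected and 0 were apart, near the background of 12.0% of all detected genes. Alb read 63745 in BALB/CByJ against 64650 to 74714 elsewhere, and Afm, the afamin gene that follows Afp, read 7752 against 6202 to 8435. Rassf6, a Ras association domain gene further along, was the closest to the threshold. It read 469.6 in BALB/CByJ and 167 to 236 elsewhere, and was 1.99-fold above the next strain.

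Lpl, like Afp, was highest in BALB/CByJ and lowest in FVB/NJ, on both of its probe sets. On probe set 1415904_at it read 3414 in BALB/CByJ, 1590.5 in RIIIS/J, 1289.8 in NZW/LacJ, 895 in C57BL/6J and 318 in FVB/NJ. On 1431056_a_at it read 630.1, 442, 279, 139.8 and 38.1 in the same order of strains. From FVB/NJ to BALB/CByJ the values spread 10.7-fold and 16.5-fold. BALB/CByJ was 2.15-fold above RIIIS/J on the first probe set, just past the threshold, and 1.43-fold above it on the second, which did not pass. FVB/NJ was 2.81-fold and 3.67-fold below C57BL/6J, past the threshold on both. The gap in BALB/CByJ ranked 81 of the 95 genes called higher there, and that in FVB/NJ ranked 19 of the 64 called lower. Of 6 measured neighbours of Lpl, 5 were detected and 1 was apart, against 12.0% of all detected genes. It was Ints10, lower in C57BL/6J at 25.7 against 69.7 to 82.5. For Zfhx3, 5 of 6 neighbours were detected and 0 were apart.

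Afp and Lpl were both higher in BALB/CByJ and lower in FVB/NJ. Of the 11872 detected genes, 613 (5.16%) were highest in BALB/CByJ and lowest in FVB/NJ at any size, and 2 (0.0168%) were called apart in both ways, Afp and Lpl. This combination was looked for after the values of both genes had been seen. It was not stable: 1 such gene was left with the higher floor and 0 with the mean of each gene's probe sets, and there were 29 when each strain was set against the median of the others.

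**Figure D2:**
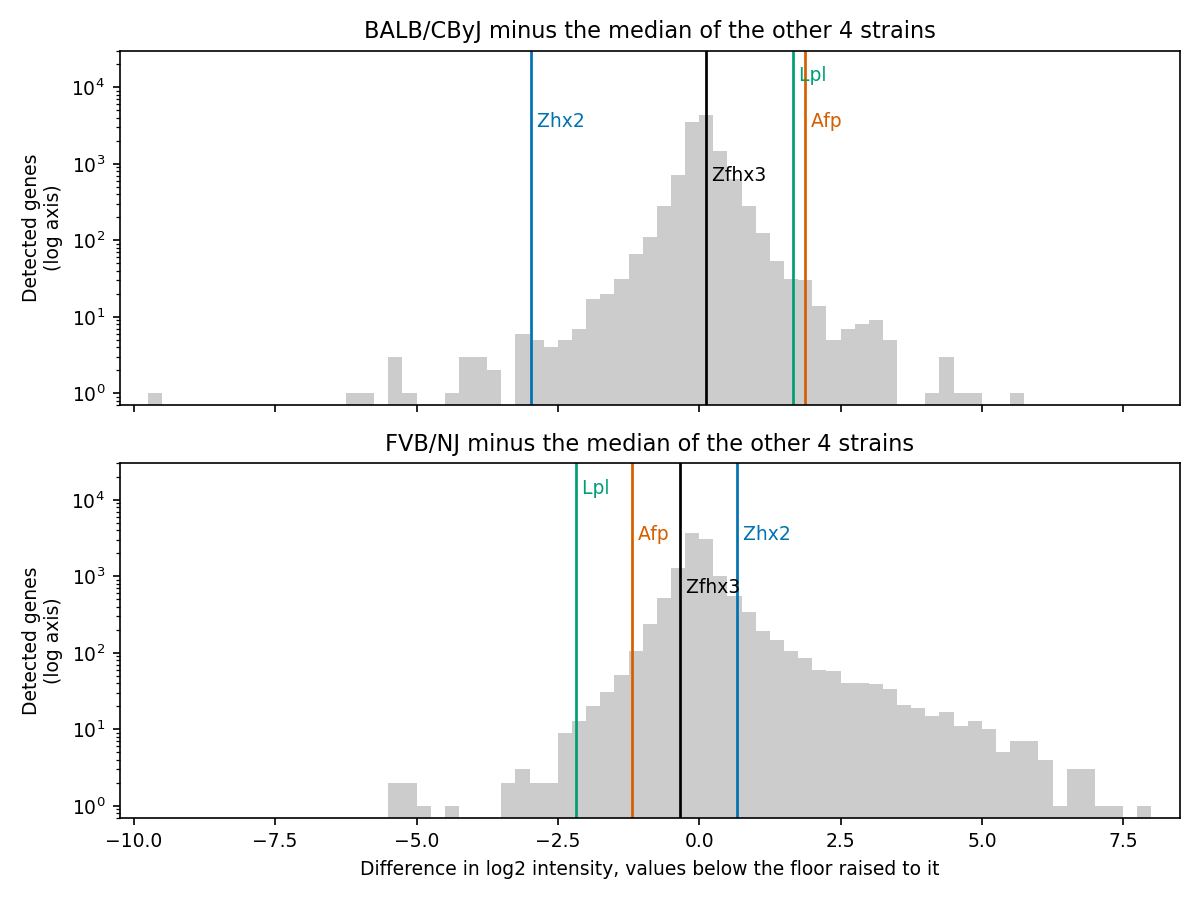
Number of detected genes (log axis) by the difference in log2 intensity between BALB/CByJ (top) or FVB/NJ (bottom) and the median of the other 4 strains, in bins of 0.25, with 4 members marked by lines. Zhx2 lies at -2.97, Lpl at 1.67 and Afp at 1.87 for BALB/CByJ. For FVB/NJ, Lpl lies at -2.17 and Afp at -1.18, while Zfhx3 is near the middle of both.

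The order of the strains by Lpl was close to the reverse of their order by Zhx2. Zhx2 ran from C57BL/6J through FVB/NJ, NZW/LacJ and RIIIS/J down to BALB/CByJ, and Lpl from BALB/CByJ through RIIIS/J, NZW/LacJ and C57BL/6J down to FVB/NJ. The exchange of C57BL/6J and FVB/NJ concerns strains whose Zhx2 values were 1.04-fold apart but whose Lpl values were not close. FVB/NJ was 2.81-fold below C57BL/6J in Lpl on 1415904_at and 3.67-fold below it on 1431056_a_at. Among all detected genes 52 (0.438%) had the strains in the order of Lpl. That order was taken from Lpl itself after its values were seen, so the share says nothing of a likeness to Zhx2. With 5 arrays no correlation is given. Afp did not show the same order on 1416645_a_at, where RIIIS/J, with less Zhx2 than NZW/LacJ and C57BL/6J, had exactly the same value as both. Exact ties were common among all probe sets, so the order of those strains by Afp remains unknown.

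In bulk liver, more cells of a type and more RNA per cell cannot be told apart, so markers of other cells were read beside Afp and Lpl. Lpl is strong in fat cells and macrophages. Of 5 measured adipocyte markers 2 were detected and 0 were apart, near the background of 12.0% of all detected genes. Lep, Retn and Cidec were under the floor on all arrays. The summed intensity of the 5 was 261 in BALB/CByJ and 249 to 291 elsewhere. Nearly all of it came from Fabp4, at 228 to 270 over the strains, so the sum says little beyond that gene. Adipoq, the adiponectin gene, was under the floor in BALB/CByJ at 4.43 and read 9.20 in FVB/NJ. Of 9 Kupffer cell and macrophage markers 0 were apart in BALB/CByJ, with a summed intensity of 3134 there, 2841 in RIIIS/J, 4498 in C57BL/6J, 5238 in NZW/LacJ and 6008 in FVB/NJ. Marco, Timd4 and Lyz2 were called higher in FVB/NJ, where 5.81% of all genes were. Cd68 and Csf1r were also highest there without being called. Clec4f and Cd5l were instead highest in NZW/LacJ, at 1152 and 1678 against 600 and 651 in FVB/NJ. Vsig4 and Adgre1 were highest in C57BL/6J, at 654 and 123 against 557 and 97.8 in FVB/NJ. All 5 striated muscle markers were near or under the floor, with a summed intensity of 35.2 to 39.1.

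Afp can also be switched on in dividing or duct-like liver cells. The 4 measured dividing cell markers summed to 116 in BALB/CByJ against 88.4 to 119 in C57BL/6J, NZW/LacJ and RIIIS/J. They summed to 879 in FVB/NJ, where Mki67, Cdk1 and Mcm5 were called higher. In BALB/CByJ most of the sum was Mcm5, at 92.5. Mki67 (7.28) and Cdk1 (7.78) were under the floor there and Top2a (8.68) was near it, so the sum says little beyond Mcm5. Cholangiocyte markers summed to 54.95 in BALB/CByJ and 46.1 to 69.3 elsewhere, with Krt7 under the floor on all arrays. Sox9 gave 29.9 of the BALB/CByJ sum, and Krt19 (9.29) and Epcam (10.9) were near the floor there. In BALB/CByJ 0 members were called higher in each of the 9 marker lists, hepatocytes included, against 0.800% of all genes. In FVB/NJ the B cell, dividing cell, macrophage, stellate cell and erythroid lists had 4 of 4, 3 of 4, 3 of 9, 2 of 8 and 1 of 4 measured members called higher, against a background of 5.81% of genes. Their part in the lower Afp and Lpl of that array was not tested. With the FVB/NJ array left out, the BALB/CByJ gaps were the same, at 4.35-fold for Zhx2, 3.67-fold for Afp and 2.15-fold for Lpl, since FVB/NJ was the nearest strain in none of them.

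The probe sets that list Gpc3, Igf2 or H19 gave no signal in any strain. Gpc3 read 4.55 to 4.78. Igf2 read 5.80 to 6.22 on one probe set and 3.97 to 4.20 on the other. The probe set listed for both H19 and Mir675 read 4.39 to 4.67, with 4.52 in BALB/CByJ. All of these lie below the floor of 8.48, so that a difference between strains was not detectable, and BALB/CByJ, where Zhx2 was under the floor and Afp highest, was no exception.

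Zfhx3 was detected in every strain and showed little variation. Its most intense probe set read 189 in RIIIS/J, 187 in C57BL/6J, 178 in BALB/CByJ, 144 in FVB/NJ and 140.1 in NZW/LacJ, a range of 1.35-fold. The 5 probe sets above the floor ranged over 1.26-fold to 1.75-fold, and they did not give a common order of strains: RIIIS/J was highest on 1420649_at and lowest on 1460006_at. The sixth, 1429725_at, was under the floor at 4.60 to 7.02. On the log2 scale the Zfhx3 range was 0.43, against a median range of 0.67 over all detected genes, and 31.1% of genes varied as little. For genes at large, the deviation of a strain from a probe set's own mean was compared between the 2 most intense probe sets. These deviations differed by a median of 0.17 and a 95th percentile of 0.80 on the log2 scale. They measure disagreement of probe sets in a strain, while the Zfhx3 range is over strains on 1 probe set. The Zfhx3 range is therefore not judged against them.

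Relatives and partners of Zhx2 were read beside it. Of 8 listed genes of the ZHX family, related homeobox genes and subunits of the factor NF-Y, all were measured, 7 were detected and 0 were apart in any strain, a count near the background, since 12.0% of all detected genes were apart in at least 1 and 0.438% were lower in BALB/CByJ. Zhx1, which encodes a close relative, read 449.5 in BALB/CByJ, its highest strain, and 266 to 339 elsewhere, and Zhx3 read 524 there against 399 to 613. Nfya, for the NF-Y subunit that ZHX proteins can bind, read 39.1 in BALB/CByJ and 27.2 to 96.5 elsewhere. The median difference of these genes in BALB/CByJ from the other strains was 0.00 on the log2 scale, as for all detected genes.

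Further genes of fetal liver and of the imprinted growth network were read in the same way. Of 23 listed genes 22 were measured and 14 detected. In BALB/CByJ 0 were called, where 0.800% of all genes were higher and 0.438% lower, so that a count of 0 among 14 is near the background. In FVB/NJ 3 were called higher, where 5.81% of all genes were. Grb10, an imprinted growth inhibitor gene, read 80.6 in BALB/CByJ against 23.3 to 45.4, 1.77-fold above the next. Plagl1, an imprinted zinc finger gene, read 122 against 67.1 to 77.6, 1.58-fold above the next. Sox4, a progenitor transcription factor gene, read 136 in BALB/CByJ, 123 in FVB/NJ and 33.4 to 68.7 in the other strains, and Meg3, an imprinted non-coding RNA gene, was lowest in BALB/CByJ at 60.3 with 87.9 to 117 elsewhere. Cd24a, a surface protein gene of progenitors and of blood cells, read 3945 in FVB/NJ against 30.7 to 48.5. Scd2, a fatty acid desaturase gene of fetal liver, read 242 in FVB/NJ against 42.5 to 52.6, and Peg3 read 176 against 28.0 to 51.3. The oncofetal genes Dlk1, Igf2bp1, Igf2bp3, Hmga2 and Trim71 were under the floor on all arrays.

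Of 13 listed transcription factors that act on the Afp gene, 10 were measured and all 10 were above the floor. A count of 0 of them apart in any strain is near the background of 12.0%. Hnf4a read 3203 to 3591. Cebpa read 3498 in BALB/CByJ and 1215 to 2630.3 elsewhere, and Cebpb read 2383 there and 1032 to 2026 elsewhere. Nr5a2, a nuclear receptor gene whose product binds the Afp promoter, was lowest in BALB/CByJ at 588 against 744 to 1485.

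Genes that serve lipoprotein lipase or share its lipoprotein substrates were read beside Lpl. Of 14 listed, 12 were measured and detected. In BALB/CByJ 0 were called, near the background of 0.800% higher and 0.438% lower. Gpihbp1, for the protein that carries the lipase to the capillary wall, read 197 in BALB/CByJ and 141 to 356 elsewhere. Angptl4, for an inhibitor of the lipase, read 1648 in BALB/CByJ and 443 to 1497 elsewhere. Apoc2, for its cofactor, read 7127.5 in BALB/CByJ, 2895 in FVB/NJ and 4778 to 11887 in the others. Vldlr, a lipoprotein receptor gene, was called higher in FVB/NJ, as 5.81% of genes were, at 352 with 170.4 in RIIIS/J, 46.4 in C57BL/6J, 15.4 in NZW/LacJ and 12.3 in BALB/CByJ. Cd36, which encodes a scavenger receptor that takes up fatty acids, was higher in C57BL/6J, where 0.489% of genes were, at 1027 with 248 to 467 in FVB/NJ, NZW/LacJ and RIIIS/J and 148 in BALB/CByJ. BALB/CByJ was thus the lowest strain for both, at -2.86 for Vldlr and -1.54 for Cd36 on the log2 scale from the median of the others, without being 2-fold below the nearest strain. Lipg, the endothelial lipase gene, was lower in NZW/LacJ, where 0.724% of genes were, at 13.9 against 49.7 to 119.

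Among the glypicans and Notum, listed with them, 5 of 6 were detected, with Gpc4 at 483 to 611. A count of 0 apart is near the background of 12.0% of all detected genes. Gpc6 was above the floor in BALB/CByJ alone, at 11.8 against 7.99 to 8.04, at least 1.40-fold higher. In the IGF system 10 of 11 genes were detected and 0 were apart in BALB/CByJ, near the background of 0.800% higher and 0.438% lower. Igf1, the postnatal counterpart of Igf2, read 8371 to 13438, and Igf2r, whose product clears Igf2, read 217 to 348. Igfbp1 was higher in C57BL/6J (788 against 114 to 260) and Igfbp3 lower in RIIIS/J, where 1.73% of genes were (114 against 320.2 to 535.5). Of the adult liver genes known to respond to Zhx2, Elovl3, a fatty acid elongase gene, read 4264 in BALB/CByJ against 676 in FVB/NJ, 1096 in RIIIS/J, 6203 in C57BL/6J and 7878 in NZW/LacJ. Cyp4a12a read 10528 in BALB/CByJ and 8974 to 15367 elsewhere. Neither was apart in any strain, near the background of 12.0%. Cyp2a4 and Mup20 were not analysed here.

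The profiles nearest to that of Zhx2 were sought over the 5 strains by the Euclidean distance between log2 values, each gene taken from its own mean. The closest were Ccl27a (distance 0.88), Mup5 (0.96), Iah1 (1.13), Plcl2 (1.16) and Klf1 (1.17), against a median of 2.73 over all genes. Ccl27a, a chemokine gene, was under the floor in BALB/CByJ at 5.63 and read 60.9 to 172 elsewhere. Mup5, a major urinary protein gene, read 32.8 against 259 to 306, and Iah1, an esterase gene, read 926 against 3120 to 4521. For Afp the nearest were Postn (0.70), Fhad1 (0.70), 1810055G02Rik (0.71), Fmo4 (0.78) and Atp8b4 (0.82), against a median of 2.22. Postn, a matrix protein gene, read 340 in BALB/CByJ and 74.5 to 156 elsewhere, and Fmo4, a flavin monooxygenase gene, read 112 against 25.1 to 31.4. Lpl came at rank 11 from Afp with a distance of 0.91. This likeness was picked from 11872 genes over 5 arrays and carries no error.

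**Figure D3:**
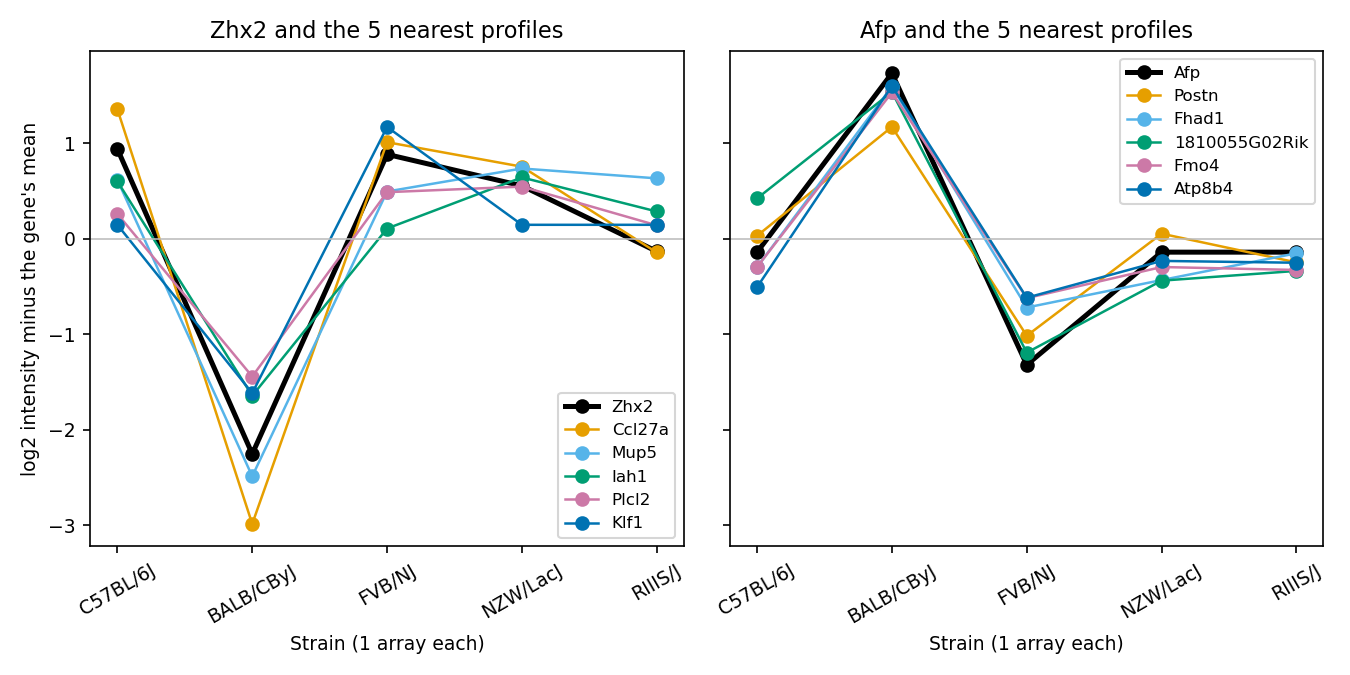
Log2 intensity minus the gene's own mean for Zhx2 (left, black) and Afp (right, black) with the 5 genes nearest to each, values below the floor raised to it, over the 5 strains with 1 array each. Lines join the strains for legibility only. BALB/CByJ is the lowest point of all 6 genes on the left and the highest point of all 6 genes on the right.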

How the data were processed

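The submitters' processing notes name GCOS and GCRMA for the deposited intensities, which are linear, and program versions are not given in the sources used here. A single file holds 5 columns, 1 per array, of 45101 probe sets, of which 34958 have 1 gene symbol, 932 several and 9211 none in the platform annotation. Intensities were converted to log2, and each of 18194 genes took its probe set of highest mean, with every probe set of a member also read alone. The floor, the 2-fold rule and the distances are given with the results. The number of arrays limits the precision. Genes were named if they were members, list members that were apart or among the highest, or the 5 nearest profiles. Neighbouring genes and further list members, such as Grb10, were named after their values were seen. Members and lists were chosen with earlier results of these data known. RefSeq (GRCm38.p6) gave gene order and promoters. The calling steps were tested on simulated data. Shifts were planted there only in genes well above the floor, so calls that rest on the floor were not covered. Python 3.11.15, numpy 2.4.6, pandas 2.3.3 and matplotlib 3.10.9 were used. Alternatives were 2 other floors, the mean of probe sets, removal of less specific probe sets, quantile normalisation, the median of the other strains, a 4-fold threshold and each array left out.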

Additional observations from a re-analysis of the deposited data

How the results depend on the processing

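With 1 array per strain, the limits are the lack of replicates and, for Zhx2 and Afp, signals near background. No paired analysis was possible because no strain has a second array. Gaps are on the log2 scale. Zhx2 in BALB/CByJ kept its call in 10 of 11 alternatives, at -2.97 to -2.12. The call was lost at -0.40 with the floor at the 99th percentile, which raises the BALB/CByJ value to that floor. With that floor Afp in FVB/NJ was -0.54. Several alternatives could not move the Zhx2 gap. It has a single probe set, so the mean of probe sets and the removal of less specific ones change nothing. Leaving out C57BL/6J, FVB/NJ or NZW/LacJ could not change it either, since RIIIS/J was the nearest strain. The mean of probe sets gave 0.89 for Afp in BALB/CByJ, -0.40 for Afp in FVB/NJ and 0.81 for Lpl in BALB/CByJ. It includes the Afp probe sets that are below the floor. Without the less specific probe sets Afp in FVB/NJ was 0. That setting lets 1416646_at stand for Afp, which is under the floor in every strain but BALB/CByJ. The floor thus fixes this gap at 0, and it cannot weigh on the FVB/NJ difference. At the 4-fold threshold the gaps of Afp (1.87 in BALB/CByJ, -1.18 in FVB/NJ) and Lpl (1.10 and -1.49) were not called, and 18 genes were higher and 14 lower in BALB/CByJ, 6 lower in FVB/NJ and 0 in both ways. Against the median of the other strains these counts were 295, 178, 244 and 29. Genes lower in FVB/NJ numbered 40 with the mean of probe sets and 109 with quantile normalisation. Genes higher in BALB/CByJ and lower in FVB/NJ numbered 1 with the higher floor, 0 with the mean of probe sets, 1 without the less specific probe sets, 4 without the C57BL/6J array and 5 without RIIIS/J. No value exists for a strain whose own array is left out. The Zfhx3 range was 0.39 to 0.55 in all 11 alternatives. The cause of these shifts was otherwise not tested.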
